A study of Homo sapiens with 8 samples.

Results

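The histone genes were read in 2 ovarian cancer cell lines given either simvastatin or L-778123. They were taken as every gene whose current RefSeq symbol starts with H1-, H2AC, H2BC, H3C or H4C followed by a digit and for which some probe stood well above background on the 2 arrays of some group, a rule that uses detection but no difference between groups. RefSeq lists 93 such symbols, 72 of them had a probe on the array, and 66 passed, out of 16955 named genes measured in the series. Of the 66, 65 carry the name of a linker or core histone gene (8 of H1, 16 of H2A, 16 of H2B, 12 of H3 and 13 of H4), and the other is H1-10-AS1, an antisense noncoding RNA that has the letters of the rule. The 6 genes that did not pass were H1-6, H1-8, H1-9P, H2AC2P, H2BC1 and H4C7. By RefSeq, 52 of the 66 lie on chromosome 6, 9 on chromosome 1 and 5 elsewhere. A gene was read at its brightest probe, and a gene was called when limma's Benjamini-Hochberg adjusted p over all 33753 probes tested was under 0.05 and the fold was at least 2.

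The 4 groups were OVSAHO cells with simvastatin, OVSAHO cells with L-778123, KURAMOCHI cells with simvastatin and KURAMOCHI cells with L-778123, with 2 arrays of total RNA in each. OVSAHO and KURAMOCHI are established lines used as models of high-grade serous ovarian carcinoma. Simvastatin inhibits HMG-CoA reductase, the enzyme that commits carbon to the mevalonate pathway, and L-778123 inhibits the prenyltransferases that attach products of that pathway to proteins, so the contrast sets a block high in the pathway against a block of protein prenylation. No untreated or vehicle group was analysed here, so higher and lower always mean simvastatin relative to L-778123 in the same line, or 1 line relative to the other. The dose and time of the array cultures were not given in the sources used here, and nothing in them says that the 2 arrays of a group came from separate cultures, so each p-value measures only the spread between these arrays, which may be technical.

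Histones package DNA: H2A, H2B, H3 and H4 form the core of the nucleosome, and H1 binds the linker DNA between nucleosomes. Most histone genes sit in clusters as many near-identical copies, are transcribed mainly in S phase with DNA replication, and give mRNAs that normally end in a stem-loop in place of a poly(A) tail. Variants such as H1-10 are made outside S phase from polyadenylated mRNA. The labelling kit copies RNA from its poly(A) tail, so the arrays read whatever part of each histone mRNA pool carried one, and that part was not measured. The deposited files hold no probe sequences, so for genes of near-identical sequence the share of a signal that came from another copy was not tested. H2AC19, H3C15 and H4C15 have close copies beside them on chromosome 1 (H2AC18, H3C14 and H4C14) that had no named probe, and each reading may cover both copies.

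Between 30122 and 33438 probes per array were well above background, and the 2 arrays of a group correlated at 0.995 to 0.996 across probes. All 8 serous markers (PAX8, WT1, EPCAM, KRT7, KRT8, KRT18, CDH1 and MUC16) were well above background on all arrays of both lines. Among markers of other cells, COL1A1 and COL3A1 were well above background on the 4 KURAMOCHI arrays and on 0 OVSAHO arrays, PDGFRA and DCN on 0 arrays, PTPRC on all 8 arrays, and CD3E on 1 OVSAHO array. Their part in the line differences below was not tested.

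In OVSAHO, histone genes were called lower with simvastatin more often than higher. Of the 66 genes, 10 (15.2%) were called lower, against 5.88% of all genes measured, and 3 (4.55%) were called higher, against 5.69% of genes. In KURAMOCHI, 5 (7.58%) were called lower, against 2.94% of genes, and 2 (3.03%) were called higher, against 2.44% of genes. Fewer cells with histone mRNA, less histone mRNA per cell and a smaller part of it with a poly(A) tail cannot be told apart in such bulk samples. The median log2 difference over the 66 was -0.26 in both lines, against 0.01 over all genes in each. Most differences were small: 45 genes in OVSAHO (68.2%) and 44 in KURAMOCHI (66.7%) had an adjusted p under 0.05 by limma at any fold, against 53.9% and 35.4% of all genes, but few of them reached a fold of 2. Counting only whether the 2 arrays of each drug overlapped, the simvastatin arrays were both lower for 39 of 66 genes in OVSAHO (59.1%), against 39.7% of all genes, and both higher for 21 (31.8%), against 41.2%. In KURAMOCHI they were both lower for 38 (57.6%), against 36.8%, and both higher for 22 (33.3%), against 37.5%. Besides the antisense RNA H1-10-AS1, which is 1 of the 3 called higher in OVSAHO, calls fell on H1, H2A and H3 genes and on 1 H2B gene, and on no H4 gene.

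**Figure D1:**
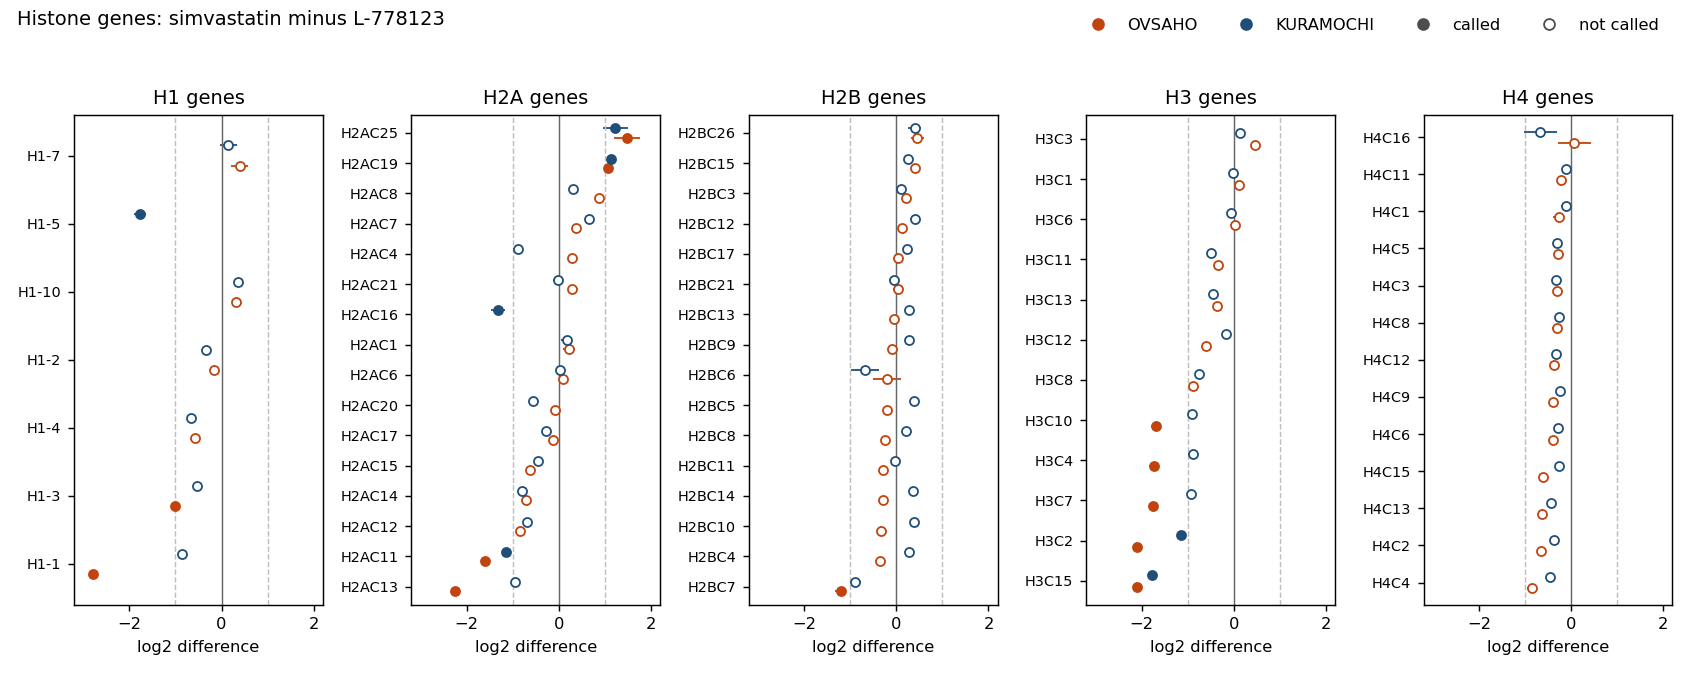
Log2 difference, simvastatin minus L-778123, with its SE, for the histone genes by family in OVSAHO (orange) and KURAMOCHI (blue). Filled points were called and dashed lines mark a fold of 2. H1-5 and H2AC16 are shown for KURAMOCHI only, since they were not well above background on any OVSAHO array. The H4 genes cluster just below 0 with none called, while the H3 genes spread from 0.46 to -2.11 in OVSAHO.

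Among the linker histones, H1-1 had the lowest difference of all 66 genes in OVSAHO. Its log2 signal relative to the array's 75th percentile was -0.50 and -0.61 on the simvastatin arrays and 2.19 and 2.28 on the L-778123 arrays. In KURAMOCHI it was 2.26 and 2.28 with simvastatin and 3.14 and 3.13 with L-778123. The groups did not overlap in either line, and the low level of the OVSAHO simvastatin arrays stood apart from the other 3 groups. H1-1 fell by 2.79 on the log2 scale in OVSAHO (SE 0.07, n = 2 per group, limma adjusted p = 1.81e-05). In KURAMOCHI the difference was -0.86 (SE 0.07, adjusted p = 0.000689), short of a fold of 2, and the difference between the lines was itself called (-1.92, SE 0.09, adjusted p = 0.000363).

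H1-3, also a replication-coupled linker histone, read 2.54 and 2.51 with simvastatin and 3.45 and 3.63 with L-778123 in OVSAHO. It was called lower there, close to the fold limit (-1.01, SE 0.07, limma adjusted p = 0.000253), and it lost the call with quantile normalization (-0.98) and without the second L-778123 array of OVSAHO (-0.93). In KURAMOCHI its difference was -0.54 (SE 0.07). H1-2 (-0.16 and -0.33 in OVSAHO and KURAMOCHI) and H1-4 (-0.58 and -0.66) lay below 0 in both lines and were not called. The testis-type H1-7 gave 0.39 (SE 0.19) and 0.14 (SE 0.19) and was not called.

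H1-5 was measured in KURAMOCHI only. It read -1.26 and -1.18 with simvastatin and 0.55 and 0.54 with L-778123, a fall of 1.76 on the log2 scale (SE 0.13, limma adjusted p = 0.0006). The 4 OVSAHO arrays read between -6.94 and -6.41, not well above background on any of them.

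H1-10, a linker histone that is not tied to replication, gave 0.31 and 0.35 (SE 0.08 in each), not called. Its antisense RNA H1-10-AS1 was called higher in OVSAHO (1.40, SE 0.06, limma adjusted p = 4.44e-05), with values of 0.84 and 0.79 against -0.61 and -0.56. Its other 2 probes gave 0.30 and 0.26 and were not called. With normexp background correction the brightest probe was picked anew and gave 0.23, which may be a reading of another probe.

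Of the 16 H2A genes, 2 (12.5%) were called higher and 2 (12.5%) lower in each line. Among all genes, 5.69% were called higher and 5.88% lower in OVSAHO, and 2.44% and 2.94% in KURAMOCHI. H2AC13 read -0.04 and -0.02 with simvastatin and 2.21 and 2.27 with L-778123 in OVSAHO, and 0.59 and 0.62 against 1.53 and 1.56 in KURAMOCHI. The groups did not overlap in either line and the gap in OVSAHO was the wider: -2.26 (SE 0.05, limma adjusted p = 1.84e-05) against -0.94 (SE 0.05, adjusted p = 0.000333, not called), with a called difference between the lines of -1.32 (SE 0.08, adjusted p = 0.00057). H2AC11 read 0.97 and 0.94 against 2.48 and 2.64 in OVSAHO and 2.07 and 2.15 against 3.33 and 3.20 in KURAMOCHI. It was called lower in both lines, by -1.61 (SE 0.08, adjusted p = 8.27e-05) and -1.16 (SE 0.08, adjusted p = 0.000581).

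Read at the brightest probe, H2AC19 and H2AC25 were the only histone genes called higher in both lines. H2AC19 read 1.72 and 1.83 with simvastatin and 0.65 and 0.74 with L-778123 in OVSAHO, and 2.76 and 2.92 against 1.71 and 1.71 in KURAMOCHI. Its simvastatin arrays were the higher by about the same amount in each line, 1.08 (SE 0.08, limma adjusted p = 0.000266) and 1.13 (SE 0.08, adjusted p = 0.000578), and the difference between the lines was not called. With normexp the OVSAHO difference was 0.96, short of a fold of 2. H2AC25 read -0.41 and -0.45 against -1.99 and -1.83 in OVSAHO, a difference of 1.47 (SE 0.27, adjusted p = 0.00713) that was not called by the methods' analysis of variance with Tukey's test. In KURAMOCHI it read -4.21 and -3.73 with simvastatin and -5.57 and -4.81 with L-778123, where it was not well above background, so that only a bound holds there: at least 1.47-fold higher with simvastatin (fitted difference 1.22, SE 0.27, adjusted p = 0.0219). Without the second KURAMOCHI simvastatin array the KURAMOCHI difference was 0.98, and without the first KURAMOCHI L-778123 array it was 0.84, and it was then not called.

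H2AC16 was not well above background on any OVSAHO array, as for H1-5. In KURAMOCHI it read -1.94 and -2.30 against -0.85 and -0.75, a difference of -1.32 (SE 0.16, limma adjusted p = 0.00268) that was -0.79 with normexp and then not called. H2AC4 was not called in either line (0.29 in OVSAHO and -0.88 in KURAMOCHI), but it read 0.82 and 0.89 against 0.48 and 0.65 in OVSAHO and -0.04 and 0.12 against 0.97 and 0.87 in KURAMOCHI, and the difference between the lines was called (1.18, SE 0.13, adjusted p = 0.00341).

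The H2B genes lay near 0. In OVSAHO 1 of 16 (6.25%) was called lower, near the 5.88% of all genes, and 0 higher, against 5.69%, with a median of -0.14. In KURAMOCHI 0 were called in either direction, against 2.94% of all genes lower and 2.44% higher. There 12 of 16 lay above 0, with a median of 0.26. By limma 8 of the 16 (50%) had an adjusted p under 0.05 in each line, beside the 53.9% and 35.4% of all genes given above. The gene called was H2BC7, which read -0.76 and -0.72 with simvastatin and 0.31 and 0.63 with L-778123 in OVSAHO (-1.21, SE 0.12, adjusted p = 0.000798) and -0.26 and -0.34 against 0.49 and 0.69 in KURAMOCHI (-0.89, SE 0.12, adjusted p = 0.00454). Its groups did not overlap in either line, and with normexp the OVSAHO difference was -0.98, short of a fold of 2.

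In OVSAHO the H3 family held the largest share of lower calls. There 5 of 12 (41.7%) were called lower (H3C2, H3C4, H3C7, H3C10 and H3C15), against 5.88% of all genes, with a family median of -0.74. In KURAMOCHI 2 of 12 (16.7%) were called lower (H3C2 and H3C15), against 2.94% of all genes, with a median of -0.63. H3C15 read 3.25 and 3.30 with simvastatin and 5.34 and 5.42 with L-778123 in OVSAHO, and 2.98 and 2.85 against 4.68 and 4.71 in KURAMOCHI. The simvastatin arrays of both lines lay together well below the L-778123 arrays of both, with differences of -2.11 (SE 0.07, limma adjusted p = 2.58e-05) and -1.78 (SE 0.07, adjusted p = 0.000147). H3C2 read 2.68 and 2.79 against 4.75 and 4.92 in OVSAHO (-2.10, SE 0.08, adjusted p = 4.42e-05) and 4.24 and 4.26 against 5.44 and 5.34 in KURAMOCHI (-1.14, SE 0.08, adjusted p = 0.000633). H3C7, H3C4 and H3C10 were called lower in OVSAHO (-1.76, -1.73 and -1.70) and gave -0.94, -0.88 and -0.91 in KURAMOCHI, short of a fold of 2, and none of these 3 was called for a difference between the lines.

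Of the other 7 H3 genes, none was called in either line, and H3C1 and H3C6 lay closest to 0 in both. H3C1 gave 0.13 and -0.02, H3C6 0.03 and -0.05, and H3C3 0.46 (SE 0.06, limma adjusted p = 0.00179) and 0.14 in OVSAHO and KURAMOCHI. H3C8 gave -0.87 (SE 0.08, adjusted p = 0.000507) and -0.75 (SE 0.08, adjusted p = 0.00178), both short of a fold of 2. H3C12 gave -0.60 and -0.17, H3C11 -0.34 and -0.50, and H3C13 -0.35 and -0.46. H3C1 and H3C2 share a cluster on chromosome 6, H3C13 and H3C15 a cluster on chromosome 1, and each set holds a gene that was called lower in both lines and a gene that was not called in either. These 4 genes were chosen for display after their values were seen. The 110 bases before their start sites are printed from RefSeq promoters (GRCh38.p14, read on the gene's own strand up to the start), with the CCAAT box (its letters CCAAT) and the TATA box (searched as TATAAA) in capitals where they occur on either strand, so that the called and uncalled genes can be set side by side.
H3C1, chr6:26020341-26020450 plus strand, not called: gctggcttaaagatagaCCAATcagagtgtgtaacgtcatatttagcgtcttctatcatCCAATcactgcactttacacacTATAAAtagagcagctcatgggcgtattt
H3C2, chr6:26032100-26032209 minus strand, called lower in both lines: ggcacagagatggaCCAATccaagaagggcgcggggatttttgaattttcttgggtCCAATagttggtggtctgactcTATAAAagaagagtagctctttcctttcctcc
H3C13, chr1:149813694-149813803 minus strand, not called: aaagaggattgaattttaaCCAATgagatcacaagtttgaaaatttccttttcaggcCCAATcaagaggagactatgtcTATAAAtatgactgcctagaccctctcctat
H3C15, chr1:149852498-149852607 plus strand, called lower in both lines: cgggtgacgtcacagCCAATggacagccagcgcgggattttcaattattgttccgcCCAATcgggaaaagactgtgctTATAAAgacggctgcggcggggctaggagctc

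All 4 hold CCAAT more than once and a TATAAA, whether the gene was called or not. Compared base by base back from the start without gaps, H3C1 and H3C2 match at 27.3% of the 110 positions, and H3C13 and H3C15 at 24.5%. The marked letters lie at different distances from the start in each pair, so shared bases out of register count as mismatches. These percentages therefore do not measure how alike the stretches are. Over the family, CCAAT was in the 250 upstream bases of 10 of 10 H3 genes with a promoter in the table, against 33.04% of 27305 genes, and TATAAA in 7 of 10, against 11.13%. TATAAA was in 4 of the 5 H3 genes called lower in OVSAHO and in 3 of the other 5. These counts include H3C4, whose listed start is also that of H2AC7, so its window is shared with that gene. Letters alone describe the window and show no binding.

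The H4 genes gave small differences of 1 sign. In OVSAHO 12 of 13 and in KURAMOCHI 13 of 13 lay below 0, with medians of -0.37 and -0.31. In either line 0 of 13 were called, against 5.88% and 2.94% of all genes called lower and 5.69% and 2.44% called higher. With only 13 genes, 0 calls are not set apart from those shares. By limma 10 (76.9%) and 7 (53.8%) of the 13 H4 genes had an adjusted p under 0.05 in OVSAHO and KURAMOCHI, beside 53.9% and 35.4% of all genes. H4C4 had the lowest difference in OVSAHO, with 2.79 and 2.58 on the simvastatin arrays and 3.51 and 3.57 on the L-778123 arrays (-0.86, SE 0.09, adjusted p = 0.000897). The H4 genes code for the same protein and are very alike in sequence, and they were read by probes whose targets were not given, so 13 readings are not 13 independent genes. H4 promoters held CCAAT in 3 of 11 and the octamer ATTTGCAT in 0 of 11.

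**Figure D2:**
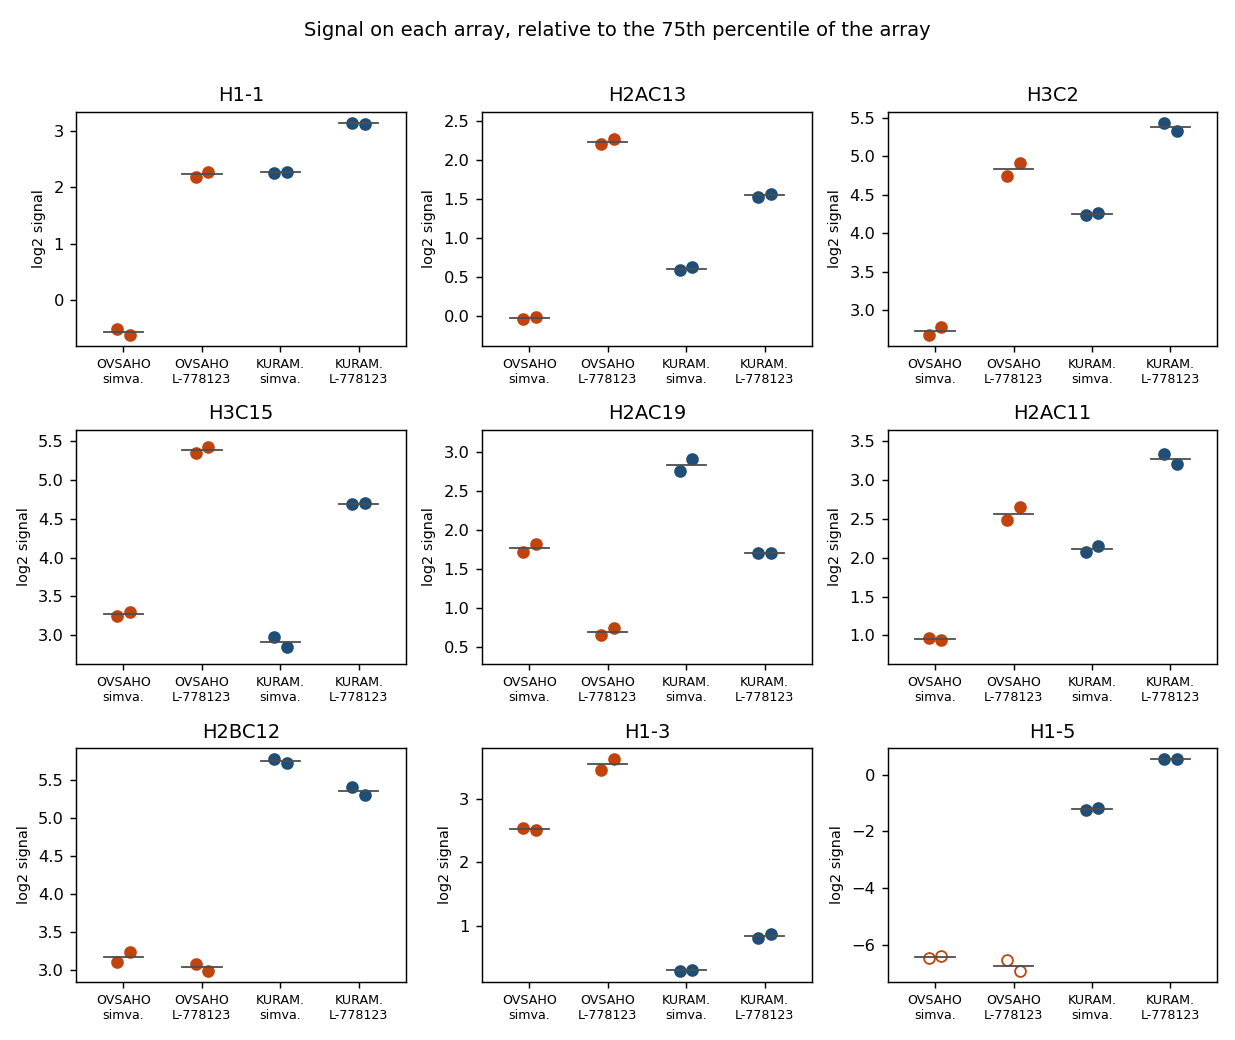
Log2 signal relative to the array's 75th percentile for 9 histone genes on each of the 8 arrays, OVSAHO in orange and KURAMOCHI in blue, with lines at group means; scales differ between panels. Open points were not well above background. H1-1 was lowest on the OVSAHO simvastatin arrays (-0.50 and -0.61), and H3C15 was lower with simvastatin in both lines.

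Many H2A and H2B genes lie head to head, transcribed away from each other out of a short shared promoter. RefSeq promoters held 10 such H2A and H2B couples among the 66 genes, with start sites separated by 193 to 247 bases. Only starts at most 250 bases apart were searched, so the upper end of that range and the count depend on this limit. In OVSAHO only the H2A gene was called in 3 of the 10, only the H2B gene in 1, both in 0 and neither in 6. In KURAMOCHI only the H2A gene was called in 2, the H2B gene in 0, and neither in 8. Among all genes, 5.69% were called higher and 5.88% lower in OVSAHO, and 2.44% and 2.94% in KURAMOCHI. H2AC13 differed by -2.26 in OVSAHO and its partner H2BC13 by -0.05 (SE 0.08, not called). H2AC11 differed by -1.61 and H2BC11 by -0.30 (SE 0.07, not called). In H2AC7 and H2BC7 the roles were turned, with 0.37 (SE 0.08, not called) for H2AC7 and -1.21 for H2BC7. H2AC25 differed by 1.47 and H2BC26 by 0.45 (SE 0.14, not called). The difference between the members of a couple was not tested. H2BC13, H2BC11 and H2AC7 were named for their partners, after their values were seen.

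The whole stretch between the starts is printed for 3 couples whose members differed in call, on the plus strand of GRCh38.p14 from RefSeq. Capitals mark the CCAAT box, the TATA box as above, and the octamer ATTTGCAT, each on either strand, so that reverse complements are in capitals too. The gene named first is read leftward and the gene named second rightward.
H2BC13 to H2AC13, chr6:27807930-27808172: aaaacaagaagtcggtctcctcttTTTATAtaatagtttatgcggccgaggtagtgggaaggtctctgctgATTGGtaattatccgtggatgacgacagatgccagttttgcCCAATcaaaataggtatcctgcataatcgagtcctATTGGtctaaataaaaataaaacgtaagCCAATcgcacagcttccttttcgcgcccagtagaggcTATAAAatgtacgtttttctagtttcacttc
H2BC11 to H2AC11, chr6:27132796-27133042: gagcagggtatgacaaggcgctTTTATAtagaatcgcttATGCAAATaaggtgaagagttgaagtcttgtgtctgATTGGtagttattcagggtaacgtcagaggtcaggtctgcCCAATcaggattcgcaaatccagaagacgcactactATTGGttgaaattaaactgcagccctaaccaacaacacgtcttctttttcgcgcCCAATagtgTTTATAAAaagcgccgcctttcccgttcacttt
H2AC7 to H2BC7, chr6:26199294-26199515: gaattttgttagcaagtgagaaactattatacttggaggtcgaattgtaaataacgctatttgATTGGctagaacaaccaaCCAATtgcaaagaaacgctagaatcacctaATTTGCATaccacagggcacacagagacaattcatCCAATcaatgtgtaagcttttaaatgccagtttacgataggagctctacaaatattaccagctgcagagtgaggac

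The H2BC13 to H2AC13 stretch held a TATAAA near each start and no octamer, H2BC11 to H2AC11 held both, and H2AC7 to H2BC7 held an octamer and no TATAAA. Over the families, the octamer was in the 250 upstream bases of 12 of 16 H2B and 11 of 15 H2A genes, against 1.66% of 27305 genes, in 0 of 7 H1 genes and in 1 of 10 H3 genes, H3C4, whose listed start is also that of H2AC7. CCAAT was in 16 of 16 H2B, 15 of 15 H2A and 6 of 7 H1 genes, and TATAAA in 11 of 16, 11 of 15 and 4 of 7. Both members of a couple are counted though they share most of the window. In all, 59 of the 66 genes had a promoter in the table.

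**Figure D3:**
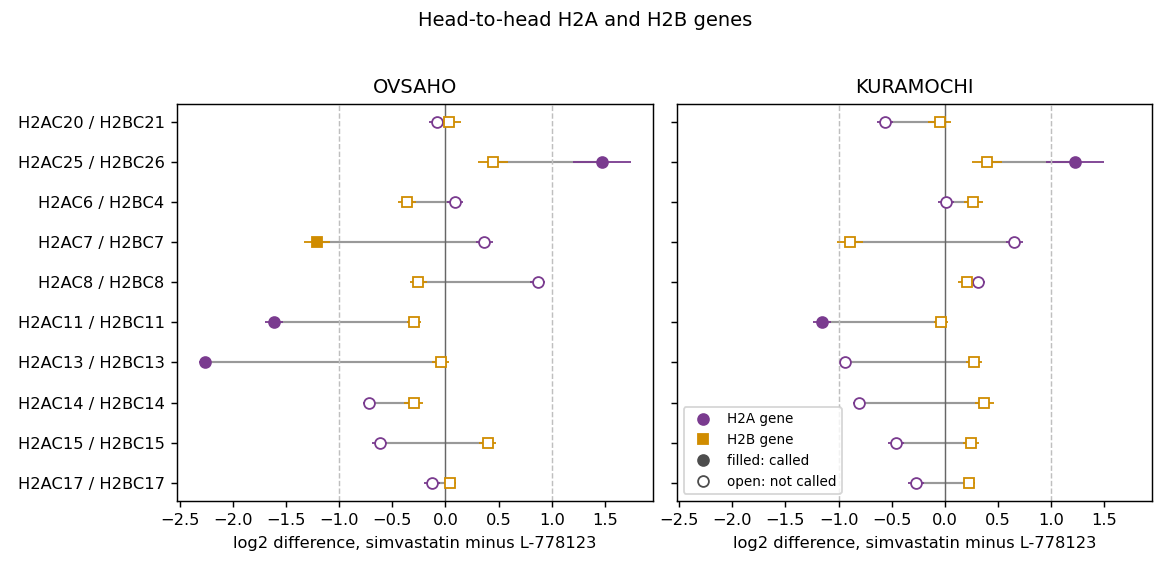
Log2 difference, simvastatin minus L-778123, with its SE, for the H2A gene (purple circle) and the H2B gene (yellow square) of 10 head-to-head couples in each line; filled symbols were called and dashed lines mark a fold of 2. In OVSAHO the H2A gene lies far below its partner for H2AC13 (-2.26 against -0.05) and H2AC11 (-1.61 against -0.30), and H2AC7 lies above H2BC7.

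Genes that lie side by side also differed in their calls. On chromosome 6 the measured genes in order are H1-1, H3C1, H4C1, H4C2 and H3C2, and in OVSAHO H1-1 and H3C2 were called lower while H3C1 (0.13), H4C1 (-0.27) and H4C2 (-0.64) between them were not. On chromosome 1, H2AC19 (1.08) and H3C15 (-2.11) are next to each other among the genes measured and were called in opposite directions in both lines. Differences between neighbours were not tested, and these stretches were chosen after their values were seen.

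Other genes of histone supply were read from lists of known roles, chosen with earlier results of these data known. Of 14 genes of histone gene transcription, mRNA 3' end processing and decay, 13 were measured and 0 were called in either line. By limma 11 (84.6%) and 3 (23.1%) of them had an adjusted p under 0.05 in OVSAHO and KURAMOCHI, beside 53.9% and 35.4% of all genes. SLBP, which binds the histone stem-loop, gave -0.25 and -0.12. NPAT, the cyclin E target that drives histone transcription, gave -0.59 and -0.08, and CASP8AP2, a component of the same nuclear bodies, -0.21 and -0.20. Of 22 histone chaperones, 5 (22.7%) were called lower in OVSAHO and 2 (9.09%) in KURAMOCHI, against 5.88% and 2.94% of all genes. In both lines 0 were called higher, against 5.69% and 2.44% of genes. ASF1B, which hands H3 and H4 to assembly factors, differed by -2.09 (SE 0.06, adjusted p = 2.01e-05) and -1.08 (SE 0.06, adjusted p = 0.000266), and was the only chaperone called for a difference between the lines (-1.01, SE 0.08). CHAF1A, the large subunit of the replication-coupled assembly factor, differed by -1.33 and -1.01, both called. NASP (-1.48 and -0.84), the CENPA chaperone HJURP (-1.34 and -0.99) and ANP32E (-1.04 and -0.48) were called in OVSAHO only. The paralogue ASF1A (-0.50 and -0.16) and CHAF1B (-0.63 and -0.85) were not called.

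Of the 9 replication-independent variants measured of 10 listed, CENPA, the centromeric H3, was called lower in OVSAHO (-1.16, SE 0.08, limma adjusted p = 0.000249) and gave -0.71 in KURAMOCHI. MACROH2A2 was called lower in KURAMOCHI (-1.19, SE 0.28, adjusted p = 0.0246), where it was well above background on 1 of the 2 simvastatin arrays, and gave -0.54 in OVSAHO (SE 0.28). The DNA damage variant H2AX gave -0.70 and -0.52, H2AZ1 -0.85 and -0.62, and H3-3A 0.17 and 0.07, none of them called.

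Genes of S phase were lower with simvastatin as well. Of 14, 12 (85.7%) were called lower in OVSAHO and 7 (50%) in KURAMOCHI, against 5.88% and 2.94% of all genes. Their medians were -1.31 and -0.99. In each line 14 of 14 lay below 0, against 8288 of 16955 genes in OVSAHO and 8238 in KURAMOCHI. CCNE2 gave -2.07 and -1.71, CCNA2 -1.51 and -1.05, and RRM2, a ribonucleotide reductase subunit, -2.65 and -1.76, all called, while the replication clamp PCNA was called in OVSAHO (-1.27) and gave -0.70 in KURAMOCHI. The share of cells in S phase was not measured. The part of this list in the histone differences was not tested.

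Across the lines, 51 of the 66 histone genes were called in neither drug contrast. H2AC11, H3C2 and H3C15 were called lower in both lines, and H2AC19 and H2AC25 higher in both. In KURAMOCHI the L-778123 arrays were not well above background for H2AC25. Only a bound of at least 1.47-fold holds there, and that bound is short of a fold of 2. Of the others called, 7 were lower in OVSAHO only and 1 higher in OVSAHO only. Called lower in KURAMOCHI only were 2 (H1-5 and H2AC16, not well above background in OVSAHO), and 0 genes went opposite ways. A call in 1 line only does not show a difference between lines. The test of that difference called 5 of 66, 3 higher (4.55%) against 4.29% of genes, and 2 lower (3.03%) against 3.30% of genes, near the background. At any fold 21 of 66 (31.8%) had an adjusted p under 0.05, against 27.4% of genes. The 5 were H1-1, H2AC13 and H2AC4, which were measured in both lines, and H1-5 and H2AC16, for which the OVSAHO side was not well above background and no difference between the lines is read here. For H2AC16 the call was also lost with normexp (0.99).

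Between the lines, averaged over both drugs, 20 of 66 histone genes (30.3%) were called lower in OVSAHO than in KURAMOCHI, against 16.4% of all genes measured, and 4 (6.06%) were called higher, against 18.3%. At any fold 58 (87.9%) had an adjusted p under 0.05, against 82.9% of genes. The median was -0.38, against 0.03 over all genes. The lower calls were concentrated in H2B: 11 of 16 H2B genes were called lower, 1 higher, and 14 of 16 lay below 0, with a median of -1.23. Of the others, 3 of 8 H1, 3 of 16 H2A, 1 of 12 H3 and 2 of 13 H4 genes were called lower. The H1 count includes H1-5 and the H2A count includes H2AC16. Both passed the filter on dim probes only through KURAMOCHI, so their lower calls were built into their selection. The 20 lower calls and the median over all 66 include them too. The 2 lines were on different positions of the same slide, and position and line cannot be told apart. Each array had its own position, and the drug contrasts within a line were not adjusted for position either.

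H2BC12 read 3.10, 3.23, 3.08 and 2.98 on the 4 OVSAHO arrays and 5.77, 5.72, 5.40 and 5.30 on the 4 KURAMOCHI arrays. All OVSAHO arrays were lower, by -2.45 (SE 0.06, n = 4 per line, limma adjusted p = 4.37e-07), and its other probe was called too, at -1.44. H2BC6 (-2.22, and -0.87 with normexp, not called), H2BC8 (-1.64), H2BC14 (-1.59), H2BC10 (-1.53) and H2BC9 (-1.37) followed. Of the head-to-head couples, only the H2B gene was called in 4, both in 2 and neither in 4, and no couple had only its H2A gene called. Among all genes, 16.4% were called lower and 18.3% higher in this comparison. H2BC26, the single H2B gene called higher, read between -1.63 and -1.09 in OVSAHO and between -4.12 and -3.47 in KURAMOCHI (2.50, SE 0.10, limma adjusted p = 3.14e-06). It was well above background on 1 of the 2 KURAMOCHI L-778123 arrays, and its difference was as low as 1.15 under the alternatives. Its partner H2AC25 was the highest of all 66 genes at 3.41 (SE 0.19), and as low as 1.61 under the alternatives. For H2AC25 a bound of at least 6.17-fold holds on the L-778123 arrays.

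The linker histones went both ways between the lines. H1-3 read 2.54, 2.51, 3.45 and 3.63 in OVSAHO and 0.28, 0.31, 0.80 and 0.87 in KURAMOCHI, higher on every OVSAHO array (2.47, SE 0.05, limma adjusted p = 3.67e-07). H1-1 was lower in OVSAHO on average (-1.86, SE 0.05), though its OVSAHO L-778123 arrays lay beside the KURAMOCHI simvastatin arrays. H1-5 was at least 10.4-fold higher in KURAMOCHI with simvastatin and at least 44.1-fold higher with L-778123, where the bound takes, for each OVSAHO array, its dimmest signal that still counted as above background. H2AC16 was at least 5.57-fold and at least 17.4-fold higher in the same way. Both genes passed the filter on dim probes only through KURAMOCHI, so that a difference between the lines was built into their selection. H1-5 and H2AC16 are next to each other among the genes measured on chromosome 6, and their neighbours on either side, H2BC15 (-0.55) and H3C11 (0.01), were measured in both lines and not called.

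**Figure D4:**
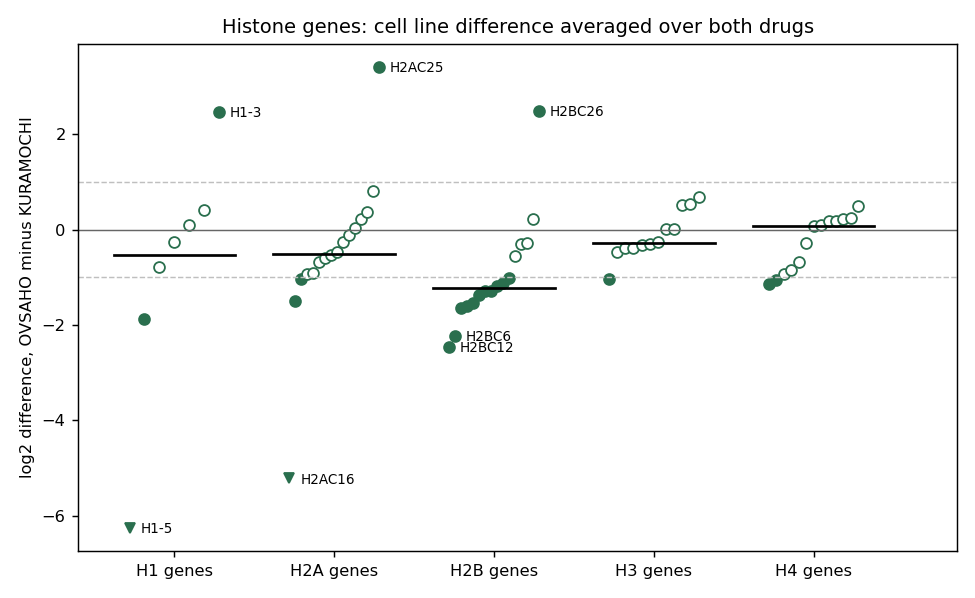
Log2 difference, OVSAHO minus KURAMOCHI, averaged over both drugs, for the histone genes by family; black bars are medians over all members of a family, filled symbols were called, dashed lines mark a fold of 2, and triangles mark genes not well above background on any OVSAHO array. The H2B genes centre on -1.23, while the H4 genes centre on 0.08.

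For 10 genes a dimmer probe had also passed, and some disagreed with the brightest. The other probe of H2AC17 gave -1.53 in OVSAHO and was called lower, against -0.13 for the brightest. The other probe of H2BC21 gave 1.11 and 1.40 in OVSAHO and KURAMOCHI and was called higher in both, against 0.03 and -0.05, and it differed by -2.73 between the lines, against 0.22. The other probe of H3C10 gave -0.77 in OVSAHO, not called, against -1.70, and that of H4C13 gave -1.26, called, against -0.63. H2AC17, H2BC21 and H4C13 are named here for this disagreement, after their values were seen.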

How the data were processed

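Total RNA from OVSAHO and KURAMOCHI cells was labelled with Cy3 and hybridised to Agilent SurePrint G3 Human Gene Expression v3 arrays, 1 colour, 8 arrays on 1 slide. The authors deposited the scanner output of Agilent Feature Extraction 11.5.1.1, whose processed signal is a background-corrected intensity, and a table of normalized values whose scale is not stated. Its column medians were 26.4 to 26.5, its log2 correlated with the scanner log2 signal at 0.999 or above on each array, and it was used as an alternative. Control and outlier spots were left out (58 to 99 outlier spots per array, 0 saturated), spots of a probe were averaged, and log2 intensity was set relative to each array's 75th percentile (324 to 437). The filter kept 33753 of 58162 probes, those detected above background on the 2 arrays of some group. Identifiers were named through RefSeq, 24768 of 49766, which named 31079 probes.

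limma 3.58.1 in R 4.3.3 fitted 1 mean per group to all 8 arrays, with Benjamini-Hochberg adjustment over all probes tested. The methods name an analysis of variance with Tukey's test over cell line and a further category whose name does not describe these drug arrays; it was run as an alternative over line and drug. The fit was tested on simulated data for the OVSAHO contrast, where it recovered 82.5% of 200 changed probes among 33753, with 3 false calls. The number of arrays limits the precision. The members and gene lists were chosen with earlier results of these data known. Genes named were up to 8 called each way per comparison with the largest difference, the H1 genes, and from the lists up to 5 called per comparison and a set of known histone factors. The values of 1 member, counted above and in the summaries, are not reported here. Figures were drawn with matplotlib 3.10.9. Alternatives covered background correction, scaling, filter, floor, samples, block, test, threshold, probe choice and leaving out each array.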

Additional observations from a re-analysis of the deposited data

Results flagged for a closer look

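For 5 histone genes the fitted drug difference itself differed between the lines in limma's test, given here as the difference in OVSAHO minus that in KURAMOCHI. H1-1 differed by -1.92 (adjusted p = 0.000363), with simvastatin below L-778123 on all arrays of both lines. H2AC13 differed by -1.32 (adjusted p = 0.00057), also below in both lines. H2AC4 differed by 1.18 (adjusted p = 0.00341), with simvastatin above in OVSAHO and below in KURAMOCHI. H1-5 gave 2.07 and H2AC16 1.58. Neither was well above background on any OVSAHO array, so these values set KURAMOCHI differences of -1.76 and -1.32 against OVSAHO readings below that level (fitted 0.31 and 0.26), and no difference between the lines is read from them. With normexp H2AC16 gave 0.99 and was not called.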

How the results depend on the processing

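The medians over the histone genes and the differences of the genes called, and of the H1 genes, kept their sign under the alternatives run. Reading a gene at another of its probes can turn a sign, as for H2BC21 between the lines (0.22 at the brightest, -2.73 at the other). Over the single genes, 1221 combinations of gene and setting stayed on their side of the threshold, 27 lost a call and 13 gained one. The KURAMOCHI count called higher was 1 in place of 2 with no filter, with only probes well above background on all 8 arrays, with normexp, with a floor, with only the groups compared in the fit, and with the methods' analysis of variance and Tukey's test; H2AC25 was the gene lost except under the stricter filter, which does not test it. Under the methods' test H2AC25 (1.47) lost its OVSAHO call too. Under that filter the KURAMOCHI count lower was 3, the count higher for the difference between the lines 1 and for OVSAHO against KURAMOCHI 2, over 60 genes. With normexp 1 gene was higher in OVSAHO, where H2BC7 (-0.98) and H1-10-AS1 (0.23, at the probe brightest under normexp) also lost their calls. H1-3 in OVSAHO lost its call with quantile normalization (-0.98) and in the authors' table (-0.98). The median difference between the lines was -0.48 with quantile normalization and with the authors' table.

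With no fold threshold the counts higher and lower were 12 and 33 in OVSAHO (18.2% and 50%, against 26.4% and 27.5% of all genes), 14 and 30 in KURAMOCHI (21.2% and 45.5%, against 17.1% and 18.4%), 7 and 14 for the difference between the lines (10.6% and 21.2%, against 13.4% and 14.0%), and 16 and 42 for OVSAHO against KURAMOCHI (24.2% and 63.6%, against 42.4% and 40.5%). With a fold of 1.5 they were 5 and 19 in OVSAHO (7.58% and 28.8%, against 12.3% and 12.3%) and 5 and 16 in KURAMOCHI (7.58% and 24.2%, against 6.23% and 7.39%), and 10 were lower for the difference between the lines (15.2%, against 7.53%). Leaving out each array in turn gave 1 to 2 higher in KURAMOCHI (1 without simvastatin replicate 2 or L-778123 replicate 1), 5 to 6 lower there, 9 to 10 lower in OVSAHO and 18 to 20 lower between the lines. H2BC3 and H3C2 lost their line calls in some of these fits (-0.97 and -0.99 at the least).

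Replicate numbers did not pair the arrays (correlations of deviations 0.00085 to 0.056). With the replicate block the counts stayed at 3 and 10 in OVSAHO and 2 and 5 in KURAMOCHI, and no call of a named histone gene changed. The 2 arrays per group set the limit, and dim genes have bounds only.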
